A study of Camelus dromedarius with 10 samples.

Results

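Adrenergic receptors are the G protein coupled receptors through which neurones, glia and vessels sense noradrenaline and adrenaline. The family was taken as 8 named genes (ADRA1A, ADRA1B, ADRA1D, ADRA2A, ADRA2B, ADRA2C, ADRB1 and ADRB3), chosen by name and not by measured values of this study, although with earlier results of these data known. Of the 8, 2 could be paired with an Ensembl gene ID among the 22444 in the count table, ADRA1A (ENSCDRG00005019146) and ADRA1B (ENSCDRG00005010528), and both passed the filter on low counts. The other 6 had no ID paired with their symbol in the name tables used here and are not analysed here. ADRA1A was listed both in a sheet of receptors that is not ordered by p-value and in the study's table of genes ordered by p-value, whereas ADRA1B was named only in the latter, of which the first part was used here. The naming of ADRA1B therefore rested on a small p-value in these same libraries, and its difference between the groups is not independent of that choice.

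The alpha-1 receptors are coupled through Gq to phospholipase C beta, which releases calcium from internal stores and activates protein kinase C. The alpha-2 receptors act through Gi to lower cAMP, and the beta receptors through Gs to raise it. In the supraoptic nucleus (SON), a hypothalamic nucleus of magnocellular neurones that make vasopressin and oxytocin, noradrenaline arrives with fibres that ascend from the brainstem, and in rodents alpha-1 receptors are known to excite magnocellular neurones.

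RNA was taken from punches of the rostral SON of male dromedary camels aged 4 to 5 years with free access to food. The control group (n = 5) had free access to water and the water-deprived group (WD, n = 5) had none for 20 days. The animals carried no genetic change, each library came from a separate sample, and libraries are named by group and by the number in their label. Between 1665098 and 7518432 read pairs were counted on genes per control library and between 4227685 and 8126641 per WD library, but 5 gene IDs without a symbol took between 27.7% and 76.1% of a library. Outside those IDs, control 13 held 397495 counts and WD 6 held 1106575, the fewest of the 10 libraries, and WD 9 held the most, 5872137, so that control 13 and WD 6 measured genes of low count least precisely. Of the 6 genes listed as markers of magnocellular neurones, SIM1, OTP and PDYN were paired with an ID and expressed in every library, whereas AVP and OXT had no ID paired here. VIP, a marker of the neighbouring suprachiasmatic nucleus, was at between 0 and 2.39 CPM.

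ADRA1A was higher in every WD library than in any control library. Its level, in CPM (counts relative to library size after TMM normalization, a scaling of each library that leaves the bulk of genes level), was 16.4 in control 2, 20.3 in control 3, 15.9 in control 4, 18.4 in control 5 and 22.7 in control 13. In WD camels it was 33.7 CPM in WD 6, 44.0 in WD 7, 27.5 in WD 8, 38.8 in WD 9 and 33.3 in WD 15. The groups were close at 1 point, where the lowest WD library, WD 8, stood 1.21 times above the highest control, control 13. The level of control 13 rested on 19 counts, with a 95% Poisson interval of 13.7 to 35.5 CPM that takes in WD 8, and the interval covers counting error only. Next to the other controls, of which control 3 was highest, WD 8 had an interval of 23.6 to 31.8 CPM against one of 16.3 to 25.1.

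Control camels had a mean of 18.8 ± 2.81 CPM (SD, n = 5) for ADRA1A and WD camels one of 35.5 ± 6.23 CPM (SD, n = 5). On the log2 scale WD exceeded control by 0.95 with a standard error of 0.191, a ratio of 1.94. The quasi-likelihood test of edgeR gave an adjusted p of 0.0241 (Benjamini-Hochberg, over the 14432 genes tested). The adjusted p was at most 0.05, the threshold used here, so ADRA1A rose in WD camels. Of all genes tested, 0.27% were past this threshold and higher in WD, and for 1.34% every WD library lay above every control library (2.62% where separation in either direction is counted). Refitting after dropping 1 library at a time kept the log2 fold change of ADRA1A between 0.85 and 1.01, but the adjusted p of the edgeR test rose above 0.05 in 6 of the 10 fits, without control 2, control 3, control 4, control 5, WD 7 or WD 9, and reached 0.106 without WD 7.

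ADRA1B was lower in count than ADRA1A and more variable among WD camels. It stood at 7.47 CPM in control 2, 5.68 in control 3, 10.1 in control 4, 7.91 in control 5 and 5.98 in control 13. In the WD group it stood at 32.7 CPM in WD 6, 23.3 in WD 7, 8.91 in WD 8, 22.3 in WD 9 and 16.0 in WD 15. Of the WD libraries, 4 lay above all controls, whereas WD 8 lay inside the control range and below control 4, so the groups overlapped. WD 6, the highest, and control 13, with 5 counts of ADRA1B, were also the shallowest libraries. The coefficient of variation between libraries was 43.0% in WD and 23.8% in control camels for ADRA1B, against 17.6% and 15% for ADRA1A.

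**Figure D1:**
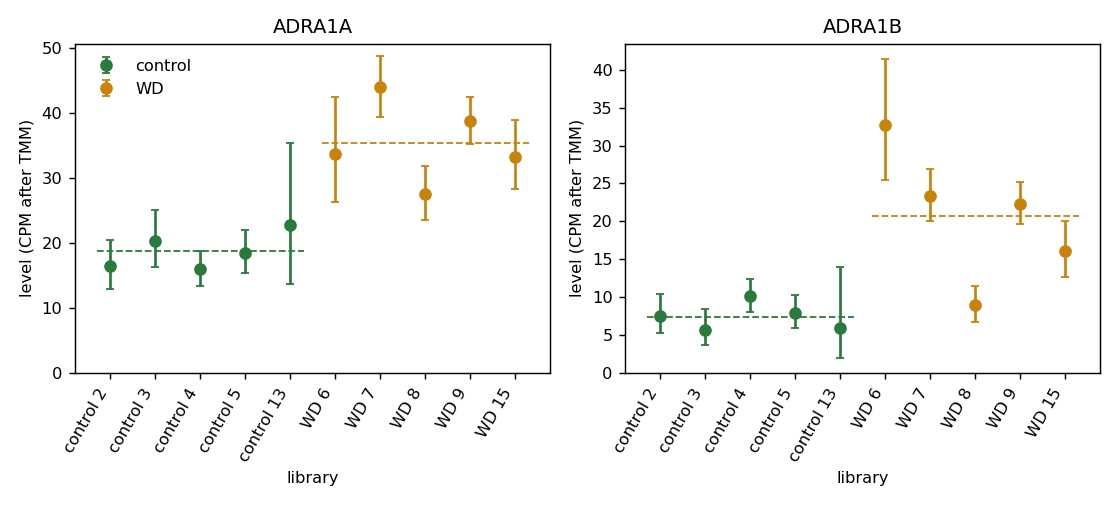
Levels of ADRA1A (left) and ADRA1B (right) in CPM after TMM normalization, on linear axes from 0, for the 5 control (green) and 5 WD (orange) libraries. Points are libraries, bars are 95% Poisson intervals of the count and dashed lines are group means. All WD libraries lie above all controls for ADRA1A, whereas WD 8 falls among the controls for ADRA1B.

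Control camels had a mean of 7.43 ± 1.77 CPM (SD, n = 5) for ADRA1B and WD camels one of 20.7 ± 8.88 CPM (SD, n = 5). The log2 difference was 1.39 with a standard error of 0.303, a ratio of 2.63, and the adjusted p by edgeR was 0.0479, just inside the threshold. ADRA1B was called higher by this test, but it was named through a small p-value in these same libraries. The call is therefore not independent of that choice. ADRA1B was the last in order of p among the 72 genes called, which were 0.499% of those tested. After dropping any 1 library, its log2 fold change lay between 1.19 and 1.57. It passed the threshold in 1 of these 10 fits, without WD 8 (adjusted p = 0.0119, edgeR), and missed it in the other 9, where the adjusted p was highest without control 3, at 0.206. Without both control 13 and WD 6, an alternative chosen after the data were seen, the log2 fold change was 0.9998 (adjusted p = 0.0231, edgeR) for ADRA1A and 1.15 (adjusted p = 0.113, edgeR) for ADRA1B.

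Among all tested genes, ADRA1B had the 41st largest log2 fold change and ADRA1A the 162nd, so that 0.277% and 1.12% of genes had a larger one. The rank of ADRA1B is likewise not independent of how the gene was named. By total count, without regard to gene length, 70.5% of tested genes lay below ADRA1A, with 1651 counts, and 49.7% below ADRA1B, with 851 counts. No gene lengths of this annotation were used, so the levels of the receptors were not ranked against each other.

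The rise was also examined within libraries of like depth, since depth differed widely. Among the 5 shallower libraries, ranked by their counts outside the dominant gene IDs, ADRA1A had a mean of 19.8 CPM in 3 controls and 33.5 CPM in 2 WD libraries, a log2 ratio of 0.76. Among the 5 deeper libraries it had 17.2 CPM in 2 controls and 36.8 CPM in 3 WD libraries, a log2 ratio of 1.10. For ADRA1B the log2 ratio of these means was 1.94 in the shallow libraries (6.38 and 24.4 CPM) and 1.01 in the deep ones (9.001 and 18.2 CPM). The mean of both receptors was thus higher in WD at either depth, and WD and control libraries overlapped only for ADRA1B in the deep group. These values within depth groups are given without a test. In the edgeR fit with the depth group as a covariate, the log2 fold change was 0.96 (adjusted p = 0.00861) for ADRA1A and 1.38 (adjusted p = 0.0216) for ADRA1B, where 0.845% of all genes were called higher. RNA integrity also differed between samples, and with the study's RNA integrity numbers as a covariate in place of depth, ADRA1A had 1.03 (adjusted p = 0.00896, edgeR) and ADRA1B 1.502 (adjusted p = 0.0228, edgeR), where 0.485% of all genes were called higher. The Wald test of DESeq2 called both receptors higher, with 0.97 (adjusted p = 2.31e-04) and 1.41 (adjusted p = 0.00581), where 0.638% of the genes it tested were called higher. That is the test the study itself used, and ADRA1B was named through a small p-value from it. The DESeq2 call of ADRA1B was therefore not independent of that naming. Neither receptor was called where libraries were scaled by their totals alone, so that the dominant gene IDs set part of the scale. There the log2 fold change was 1.12 with a standard error of 0.406 (adjusted p = 0.99998, edgeR) for ADRA1A and 1.46 with a standard error of 0.424 (adjusted p = 0.460, edgeR) for ADRA1B.

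**Figure D2:**
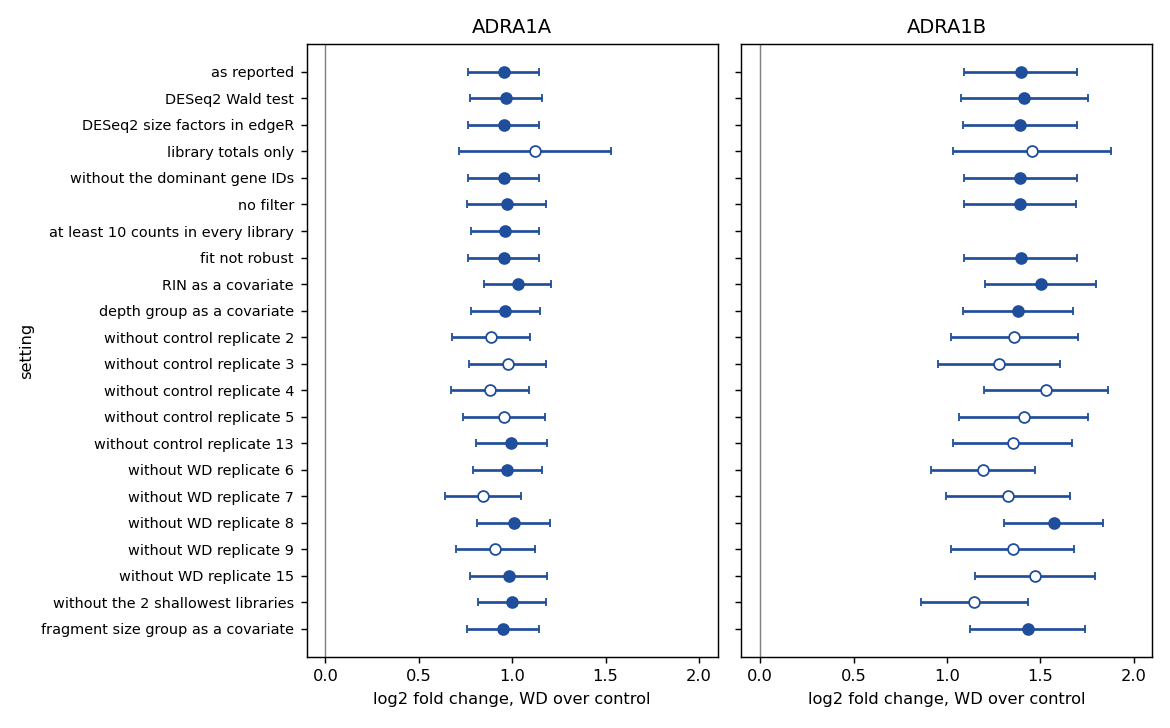
Log2 fold change of WD over control for ADRA1A (left) and ADRA1B (right) under each way of processing and with each library left out, with bars of 1 standard error. Filled points have an adjusted p of at most 0.05 and open points do not. All estimates lie above 0, between 0.85 and 1.12 for ADRA1A and between 1.15 and 1.57 for ADRA1B, and ADRA1B has no value where at least 10 counts were required in every library.

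The balance between the receptors was compared within each library, since the scaling of a library cancels in the ratio of its own counts. The counts of ADRA1B made up 31.2% of the counts of both receptors in control 2, 21.8% in control 3, 38.8% in control 4, 30.0% in control 5 and 20.8% in control 13. They made up 49.3% in WD 6, 34.7% in WD 7, 24.5% in WD 8, 36.5% in WD 9 and 32.5% in WD 15. These shares compare counts of genes of unlike length and so do not give a ratio of molecules, but they can be set beside each other between libraries. WD 6 was the only library with nearly as many counts for ADRA1B as for ADRA1A, 69 and 71, with an exact binomial 95% interval of 40.7% to 57.9%.

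**Figure D3:**
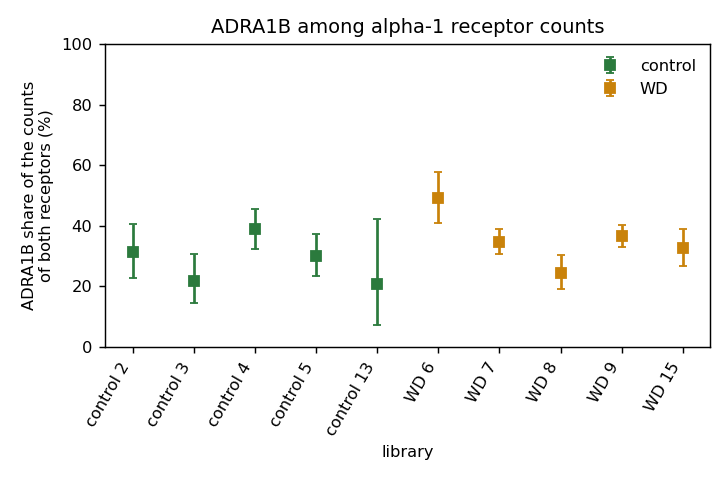
Counts of ADRA1B as a percentage of the counts of ADRA1A and ADRA1B together, for each control (green) and WD (orange) library, with exact binomial 95% intervals. The groups overlap, with 20.8% to 38.8% in control and 24.5% to 49.3% in WD libraries.

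The share of ADRA1B averaged 28.5 ± 7.39% (SD, n = 5) over the control and 35.5 ± 8.98% (SD, n = 5) over the WD libraries. As a log2 ratio of ADRA1B to ADRA1A counts, with 0.5 added to each count, the control libraries averaged -1.33 ± 0.50 (SD, n = 5) and the WD libraries -0.88 ± 0.57 (SD, n = 5). The WD mean was higher by 0.44, which was within the spread of the libraries (two-sided exact permutation test over 252 assignments, p = 0.206, where the smallest p possible is 0.00794). Shifts between -0.39 and 1.17 were not rejected by the same exact permutation test, and no difference between the rises of the receptors was detected. The difference of 0.44 dropped to 0.23 without WD 6 (exact permutation p = 0.437) and to 0.11 without both control 13 and WD 6 (exact permutation p = 0.686).

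Across the 10 libraries, the genes with the most similar pattern differed between the receptors. Likeness was measured as Pearson's r of log2 CPM, as a description, among the 3393 tested genes that had a symbol, and the libraries share their groups and their depth. Of these genes, 1063 were named only in the table ordered by p-value, that is, through small p-values in these same libraries. With the group means kept, the 5 genes most like ADRA1A were UCK2 (r = 0.97), CITED1 (0.95), PCSK1 (0.93), TMED3 (0.92) and GP2 (0.92). All 5 were themselves called higher in WD, and their r holds that shared difference. All but PCSK1 were named only in the table ordered by p-value. CITED1 encodes a transcriptional co-activator and PCSK1 a convertase that cleaves prohormones. The genes most like ADRA1B were RNF216 (0.96), DNASE1L1 (0.94), EDEM2 (0.94), RABAC1 (0.93) and IP6K2 (0.92), all 5 named only in that table, of which RNF216, a ubiquitin ligase, was called higher.

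With the mean of each group taken out, the 5 genes most like ADRA1A were SPHKAP (r = 0.88), FKBP1B (0.87), VSTM5 (0.87), PRKACA, a catalytic subunit of protein kinase A (0.85), and ZNF165 (0.84), none of them called. Those most like ADRA1B were CCDC85A (0.93), KBTBD7 (0.91), RNF216 (0.91), MAPT (0.88) and DGAT1 (0.87). Of these, 3 for ADRA1A and 4 for ADRA1B were named only in the table ordered by p-value. RNF216 was thus among the 5 most like ADRA1B by either measure, but both measures use the same 10 libraries. ADRA1A and ADRA1B themselves had an r of 0.80 with the group means kept and of 0.24 with them taken out. With the group means kept, 0.437% of the other genes tested had a higher r with ADRA1A than ADRA1B had, and 0.887% had a higher r with ADRA1B than ADRA1A had. With the group means taken out these shares were 24.9% and 27.4%.

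The transduction of alpha-1 signals was described by genes of the Gq pathway, of which 10 are reported here, 2 of them (GNAQ and ITPR1) paired through the table ordered by p-value alone. These 10 are not the whole list, so no median or count of calls is given for them. PLCB2, a phospholipase C beta, had the highest log2 fold change of the 10, 0.83 (adjusted p = 0.728, edgeR), on 189 counts in all, and PLCB4, of the same family, the lowest, -0.55 (adjusted p = 0.366, edgeR). The alpha subunit GNAQ had 0.47 (adjusted p = 0.482, edgeR). PRKCE, a protein kinase C, had -0.547 (adjusted p = 0.321, edgeR), with every WD library below every control, beside 2.62% of all genes that separated in either direction. The other Gq genes reported here overlapped between the groups.

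Of 28 genes of the Gi and Gs pathway, through which the alpha-2 and beta receptors act on cAMP, 22 were paired and tested, GNAZ through the table ordered by p-value alone. None passed the threshold in either direction, beside 0.499% of all genes, a share at which no call among so few genes says nothing about them, and the same holds for the shorter lists that follow. The median log2 fold change was -0.04, or -0.02 without GNAZ, beside 0.02 over all genes tested. ADCY8, a calcium-stimulated adenylyl cyclase, had the highest log2 fold change, 0.71 (adjusted p = 0.102, edgeR), with every WD library above every control, as for 1.34% of all genes. PRKAR1B, a regulatory subunit of protein kinase A, had the lowest, -0.58 (adjusted p = 0.454, edgeR).

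The 5 receptor kinases GRK2 to GRK6, which phosphorylate agonist-bound receptors so that arrestins bind, were all tested, while the arrestins ARRB1 and ARRB2 had no ID paired here. None of the kinases passed the threshold. Their log2 fold changes ran from -0.09 for GRK5 to 0.42 for GRK6 (adjusted p = 0.605, edgeR), with a median of 0.13.

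**Figure D4:**
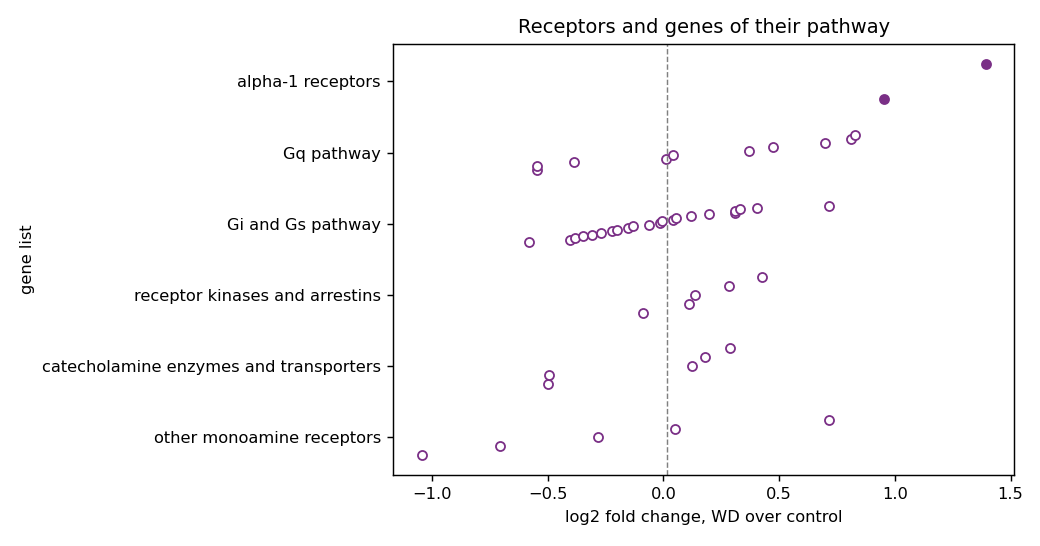
Log2 fold change of WD over control for the alpha-1 receptors and for the tested genes reported from 5 lists, 1 point per gene, spread vertically within a list for visibility only. Filled points have an adjusted p of at most 0.05, and the dashed line is the median of all genes tested (0.02). Among the genes plotted, the filled points are ADRA1A at 0.95 and ADRA1B at 1.39.

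On the side of the ligand, 7 of 10 genes for catecholamine synthesis, transport and breakdown were paired with an ID and 5 were tested, with none past the threshold in either direction. TH, the first enzyme of the synthesis, was at 3.51 CPM in control and 4.18 CPM in WD camels (log2 fold change 0.18, adjusted p = 0.942, edgeR). DBH, which makes noradrenaline from dopamine, had a mean of 1.64 CPM in control and 0.964 CPM in WD camels, on 32 and 34 counts in all. PNMT, which makes adrenaline, had 0.533 CPM and 0.146 CPM, on 16 and 5 counts, and both genes were removed by the filter and not tested. The highest log2 fold change was that of the breakdown enzyme MAOA, 0.29 (adjusted p = 0.686), and the lowest that of MAOB, -0.50 (adjusted p = 0.697), both by edgeR. Messenger RNA in the SON does not measure the noradrenaline brought by fibres whose cell bodies lie elsewhere.

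The alpha-1 receptors were also set beside receptors for other monoamines. Of 25 dopamine, serotonin, histamine and trace amine receptors, 11 were paired with an ID and 5 passed the filter, HTR5A among them only through the table ordered by p-value. None passed the threshold. HTR2B had the highest log2 fold change, 0.71 (adjusted p = 0.744, edgeR), and HTR5A the lowest, -1.04 (adjusted p = 0.404, edgeR), with every WD library below every control, beside 2.62% of all genes that separated in either direction. The median of the 5 was -0.28, or -0.12 without HTR5A. Of the 6 removed by the filter, the dopamine receptor DRD4 had the most counts, 34 over the control and 71 over the WD libraries, with means of 1.46 and 3.63 CPM. In a wider look chosen after the values were seen, the part of the study's sheet of G protein coupled receptors used here held 122 IDs, of which 63 were tested. These IDs hold none of the receptors named only in the table ordered by p-value, such as ADRA1B and CCKAR. The paper reports CCKAR as upregulated by WD, so the counts below do not cover all receptors that rose. By edgeR as reported, ADRA1A was the 1 receptor of these 63 past the threshold in either direction, beside 0.499% of all genes, and 3 of the other 62 had a larger log2 fold change. DESeq2 called 4 of 88, beside 1.27% of all genes it tested, with ADRA1A higher and the nociceptin receptor OPRL1 (log2 fold change -0.96, adjusted p = 0.0055), the PACAP receptor ADCYAP1R1 (-0.58, adjusted p = 0.00578) and the GABA-B subunit GABBR2 (-0.78, adjusted p = 0.0305) lower. With the depth group as a covariate, edgeR called the same 4 in the same directions, beside 1.55% of all genes. Where libraries were scaled by their totals alone, edgeR called 0 of the 63, beside 0.0693% of all genes. The median over the 63 was -0.14 by edgeR as reported.

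The tissue punches hold neurones, glia and vessels, and in such bulk RNA fewer cells of a type and less RNA per cell cannot be told apart. Of the 3 markers of magnocellular neurones, PDYN, which encodes prodynorphin, rose (log2 fold change 1.93, adjusted p = 3.02e-04, edgeR), while SIM1 had -0.04 (adjusted p = 0.973) and OTP -0.58 (adjusted p = 0.454) by the same test. Their summed level was 189 to 336 CPM in control and 525 to 881 CPM in WD libraries, a separation carried by PDYN, whose mean was 162 CPM in control and 618 CPM in WD camels, while the means were 71.0 and 68.8 CPM for SIM1 and 39.5 and 25.7 CPM for OTP. All 7 microglial markers were tested and had a log2 fold change above 0, 6 of them named only in the table ordered by p-value, and C1QA, a complement subunit, was called higher at 1.63 (adjusted p = 0.0232, edgeR). Without control 3, control 5, control 13 or WD 8, each dropped alone, this call was lost, and its adjusted p by edgeR reached 0.133 without control 3. The summed level of the 7 was 251 to 404 CPM in control and 318 to 1180 CPM in WD libraries.

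Of 5 markers of mural cells, which surround vessels and can carry alpha-1 receptors, 3 were tested, ACTA2 and MYH11 through the table ordered by p-value alone, and none passed the threshold. MYH11 had a log2 fold change of -1.12 (adjusted p = 0.229, edgeR) and ACTA2 -0.97 (adjusted p = 0.304, edgeR), while PDGFRB had 0.18. Their summed level was 165 to 436 CPM in control and 100.2 to 246 CPM in WD libraries. The summed level of 2 endothelial markers overlapped between the groups (142 to 300 CPM and 127 to 327 CPM), as did that of 2 oligodendrocyte markers (40.0 to 94.8 CPM and 31.5 to 79.3 CPM). Of 6 astrocyte markers ALDH1L1 alone was paired, only through the table ordered by p-value, with a log2 fold change of 0.55 (adjusted p = 0.390, edgeR). No marker paired here was at 0 over all libraries. The part of these cell types in the levels of ADRA1A and ADRA1B was not tested.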

How the data were processed

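Stranded libraries of SON RNA depleted of ribosomal RNA, 5 from control and 5 from WD camels, were sequenced from both ends. Reads were trimmed (BBDuk), aligned to Camdro2 (STAR) and assigned to genes as pairs (featureCounts) by the authors. The counts were deposited unscaled, for 22444 gene IDs. A normalized signal per gene was deposited as well, which equals the count over 1 DESeq2 size factor per library (largest departure 5.38e-10) and served only as a check. The annotation release, the strand setting of the counting and the handling of shared read pairs are not given in the sources used here, so reads shared with overlapping genes cannot be told apart. No other ID had counts within 1% (or 1 count) of either receptor in every library.

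Symbols came from the study's supplementary tables, in the part used here, which pair 4351 IDs with a symbol (35 through an NCBI gene number), 1191 of them only in the table ordered by p-value. No coordinates, gene lengths or sequences of this build were used.

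WD and control libraries were compared in R 4.3.3 with edgeR 4.0.16 (TMM, filterByExpr by group, robust quasi-likelihood F test, Benjamini-Hochberg adjustment over 14432 genes, threshold 0.05). The standard error is the log2 fold change divided by the square root of F. DESeq2 1.42.0 was an alternative. Ratios, exact permutation tests and intervals used Python 3.11.15 with numpy 2.4.6, scipy 1.17.1 and pandas 2.3.3, and figures matplotlib 3.10.9. Log2 CPM for likeness used a prior count of 2. The procedures were tested on simulated data. Replicates differed by more than sampling noise (smallest chi-square for each degree of freedom, 8.03), and p-values measure the spread between these samples.

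The members, lists and alternatives were chosen with earlier results of these data known. Named genes are both receptors, the genes of each list that passed the threshold, those with its largest and smallest log2 fold change, and the 5 genes most like each receptor. GNAQ, ITPR1, PLCB4, PRKCE, GNAZ, GRK2, TH, DBH, PNMT, DRD4, CCKAR, OPRL1, ADCYAP1R1, GABBR2 and the markers fall outside this rule and were chosen after their values were seen. A result for 1 gene of the Gq list is not reported here, and that list's figures leave it out.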

Additional observations from a re-analysis of the deposited data

How the results depend on the processing

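Both receptors kept a positive log2 fold change under every alternative that gave one. Where libraries were scaled by their totals alone, 10 genes were called and neither receptor was, with log2 fold changes of 1.12 for ADRA1A (adjusted p = 0.99998) and 1.46 for ADRA1B (adjusted p = 0.460) by edgeR. C1QA (adjusted p = 0.287) was not called either, while PDYN was. This scaling moved the median of all genes to 0.16, and relative to that median the values were 0.96 and 1.30. DESeq2's Wald test called 209 genes, with both receptors among them (adjusted p = 2.31e-04 for ADRA1A and 0.00581 for ADRA1B), and the depth group as a covariate gave 224 by edgeR. The DESeq2 call of ADRA1B is not independent, since the study's p-values, through which it was named, came from that test. Without both control 13 and WD 6, an alternative added after the data were seen, ADRA1B had 1.15 and missed the threshold. In the same fit C1QA, with 1.55 (adjusted p = 0.0625, edgeR), missed it as well. With each library left out, edgeR called 40 to 102 genes, lowest without control 3 and 42 without control 5, and the log2 fold change was 0.85 to 1.01 for ADRA1A and 1.19 to 1.57 for ADRA1B, with the calls lost that the results name. The log2 difference of the ratio of ADRA1B to ADRA1A was 0.23 to 0.63 in these fits and missed the threshold in each. ADRA1B had no value where at least 10 counts were required in every library, since control 13 had 5. The other 10 alternatives for ADRA1A and 8 for ADRA1B left their calls in place, among them the fragment size group as a covariate, also added after the data were seen. No paired analysis was possible because the labels of the control and WD samples share no replicate number. ADRA1B had 5 to 88 counts in control libraries, which limits its precision there, and the causes of the lost calls were not tested.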
